A study of Caenorhabditis elegans with 4 samples.

Results

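Chromosome IV of Caenorhabditis elegans held 1627 of the 10520 peaks in the series-level list of CHD-3 binding sites, as read from the chromosome column of that list. The list of replicate 1 held 729 peaks on IV among 4822 on the 6 nuclear chromosomes, and that of replicate 2 held 302 among 1889. These 3 lists are described here along IV, with the other 5 nuclear chromosomes as reference.

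CHD-3 is an ATP-dependent chromatin remodeller of the Mi-2 family, whose members move nucleosomes and, in NuRD complexes, work together with histone deacetylases. The worm has a closely related Mi-2 protein, LET-418. Chromosome IV is an autosome with a gene-dense centre of low recombination and arms that recombine often and are richer in repeats. It also carries nearly all genes for 21U-RNAs, the piRNAs of the worm, which silence transposons and other foreign sequence in the germline. The RefSeq gene table, built on WBcel235, lists 14714 of its 15363 piRNA genes on IV, or 95.8%.

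The study profiled CHD-3 by chromatin immunoprecipitation and sequencing (ChIP-seq) in fem-2(b245) hermaphrodites at 20 °C, with 2 ChIP and 2 input libraries. The genotype, fem-2(b245)III, alters a protein phosphatase needed for male development, and all 4 libraries carry it, so there is no wild-type group. The stage label reads germline-containing young adult, while the growth protocol describes gravid adults collected by sucrose flotation. Whole worms were ground, so germline and somatic sites cannot be told apart, and the labels do not say whether the libraries came from separate cultures. The ChIP used an affinity-purified rabbit polyclonal antibody, SDQ3907.

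The values are peak positions in the WormBase WS220 build and 1 score per peak from the authors' peak caller, whose scale is not given in the sources used here. Scores therefore only rank peaks within a list, and not where they tie. The score 3100 is shared by 86 of the 729 IV peaks in replicate 1 and by 2 of the 302 in replicate 2. Read depth is unknown, the input libraries have no peak list among the files used here, and no genome of this build was used, so no sequence is printed and no site is placed in a gene. The intervals beside shares are exact Clopper-Pearson intervals at 95%, in which every peak counts as an independent draw, so they hold counting error and nothing else. No test of a difference between chromosomes or between stretches of IV was made, and the only replication is between 2 ChIP libraries.

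CHD-3 sites were sparser on IV than on the other 5 chromosomes combined, in each list. Replicate 1 had 41.7 peaks per Mb on IV and 49.4 per Mb on the others, a ratio of 0.84. Replicate 2 had 17.3 and 19.2 peaks per Mb, or 0.90 times as many. Over both replicates this averaged 0.87 ± 0.041 (SD, n = 2). The series-level list also gave 0.87, with 93.0 and 107 peaks per Mb. Chromosome V was the only one with a lower density, in all 3 lists, so IV ranked 5 of 6 each time. By length, the peaks of replicate 1 covered 9.97% of IV and 12.3% of the other 5. Replicate 2 covered 3.47% and 4.08%, and the series-level list 4.82% and 5.80%. IV made up 17.4% of the nuclear length and held 15.1%, 16.0% and 15.5% of the peaks.

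**Figure D1:**
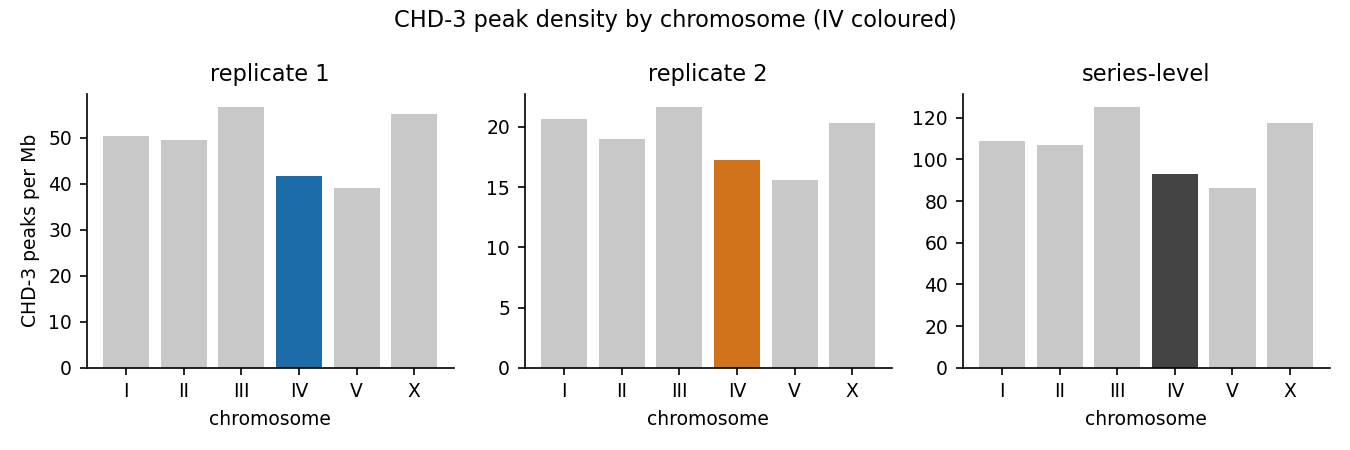
Peaks per Mb on each nuclear chromosome (vertical axis) in the list of replicate 1, replicate 2 and the series as a whole, with IV coloured; each bar is 1 list, so there is no error bar. IV, at 41.7, 17.3 and 93.0 peaks per Mb, is above V alone in each panel.

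The centre of IV was denser than either arm in all 3 lists, and the right arm was the sparsest part. Arms were taken as the outermost 25% at either end, so the left arm ran to 4373454 and the right arm began at 13120363. In replicate 1 the left arm had 36.1, the centre 51.3 and the right arm 27.9 peaks per Mb. Replicate 2 had the same order, with 16.7, 19.5 and 13.3 peaks per Mb. So did the series-level list, with 93.3, 106 and 67.0. The left arm thus had 1.30, 1.26 and 1.39 times the density of the right arm. At this boundary V had the denser arm on the left in replicate 1, with a ratio of 1.32, and III in replicate 2 and the series-level list, with 1.09 and 1.03. With wider arms, 66.6% of the length between them, the ratios on IV were 1.09, 1.20 and 1.25, and III then also had the denser left arm in all 3 lists, with 1.05, 1.25 and 1.14. At that boundary the centre and left arm of IV were nearly level in replicate 2, with 18.5 and 18.2 peaks per Mb. Replicate 1 had 51.5 and 38.3, and the series-level list 106 and 96.3.

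Both arms together held 280 of the 729 IV peaks of replicate 1, or 38.4% (interval 34.9 to 42.0%). In replicate 2 it was 131 of 302, or 43.4% (37.7 to 49.2%), and among the series-level peaks 701 of 1627, or 43.1% (40.7 to 45.5%). Averaged over the replicates, 40.9 ± 3.51% (SD, n = 2) of peaks fell in this 50% of the length. On the other chromosomes this share ran from 35.3% on V to 47.3% on X in replicate 1, and from 44.5% on V to 50.3% on II in replicate 2. Of the 12 chromosome arms, the right arm of IV ranked 3 from the sparsest in replicate 1 and the series-level list, and 2 in replicate 2. Replicate 1 exceeded replicate 2 by a factor of 2.63 in the centre of IV, 2.16 in the left arm and 2.10 in the right arm.

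**Figure D2:**
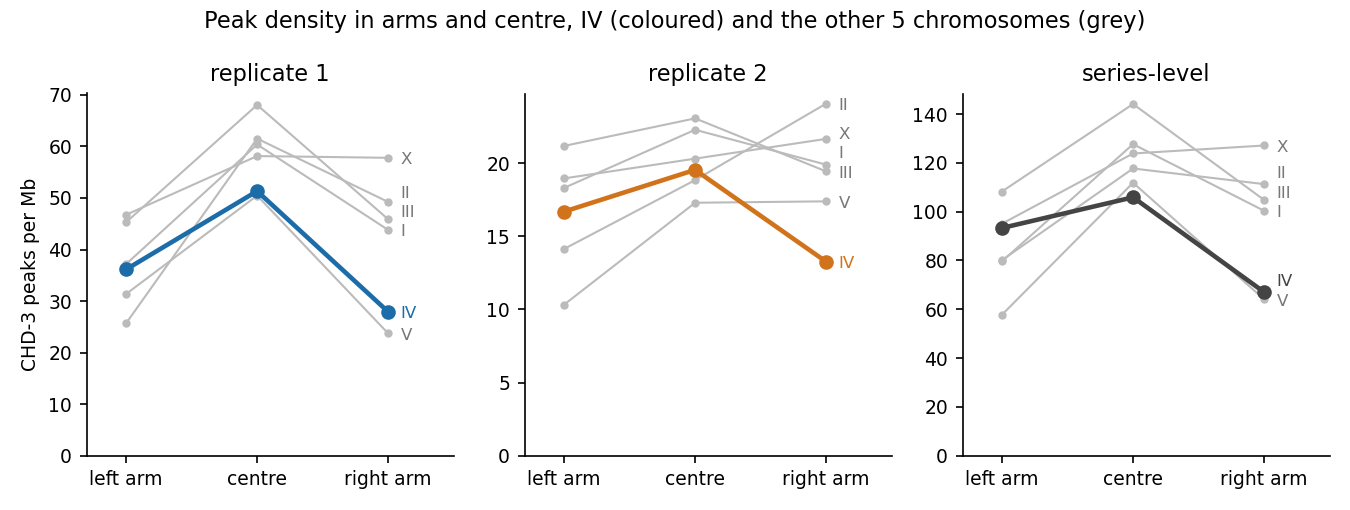
Peaks per Mb (vertical axis) in the left arm, centre and right arm of each chromosome, for the 3 lists; the coloured line is IV and the grey lines are the other 5 chromosomes, each named at its right end. IV peaks in the centre (51.3, 19.5 and 106 per Mb) and is lowest in the right arm (27.9, 13.3 and 67.0).

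Counts in single windows of 1 Mb were uneven along IV, and the 3 densest are named by the series-level list. Over the 17 full windows, numbered from the left end, replicate 1 had 21 to 63 peaks with a median of 40, replicate 2 had 10 to 29 with a median of 17, and the series-level list had 54 to 134 with a median of 94. The densest window by the series-level list was the 12th, from 11000001 to 12000000, with 134 peaks, 63 in replicate 1 and 26 in replicate 2. It also had the most peaks of any IV window in replicate 1. The 5th window, from 4000001 to 5000000, followed with 130 series-level peaks and had the most of any IV window in replicate 2, 29, against 45 in replicate 1. The replicates differed most in rank at this place: among the 97 full windows of all 6 chromosomes the 5th window of IV stood 5th in replicate 2 and 55th in replicate 1. The 9th window, from 8000001 to 9000000, was the third densest, with 128 peaks in that list, 61 in replicate 1 and 17 in replicate 2.

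By the series-level list, the sparsest 1 Mb windows lay at the right end and at 1 place inside the centre. The 16th window, from 15000001 to 16000000, had 54 in the series-level list, 23 in replicate 1 and 15 in replicate 2. The 17th, from 16000001 to 17000000, had 57, 21 and 13. The 7th, from 6000001 to 7000000, had 59, 33 and 13 and was flanked by denser windows. In replicate 2 the 14th to 17th windows had 13 to 15 peaks, below its median of 17 but above the first window, with 10. The ratio of replicate 1 to replicate 2 peaks ran from 1.53 in the 16th window to 3.60 in the first, where replicate 2 had 10 peaks, its lowest count on IV. Across the 17 windows the counts of both replicates had a Spearman correlation of 0.65, which only describes them, because adjacent windows depend on each other and all share a library. On the other chromosomes taken singly, the same value ran from 0.35 on V to 0.69 on III.

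**Figure D3:**
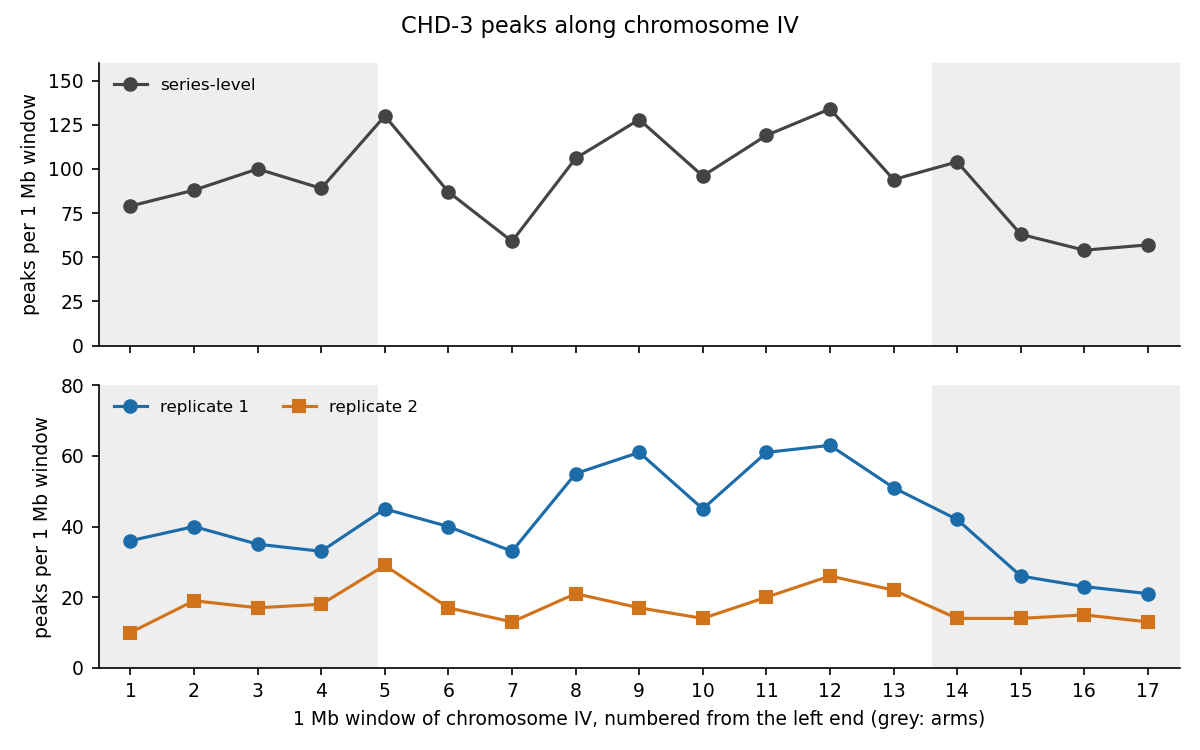
Peaks per 1 Mb window (vertical axes) along IV, with windows numbered from the left end and the arms shaded grey; the upper panel shows the series-level list and the lower panel the replicates, 1 point per window. The 5th and 12th windows stand high in the upper panel (130 and 134), and the 15th to 17th hold 21 to 26 peaks in replicate 1.

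Stretches known for 21U-RNA genes did not share 1 level of CHD-3 sites. Most of these genes lie in a pair of broad stretches of IV, which as background knowledge correspond roughly to the windows 5 to 7 and 14 to 17; no annotation of this build was used to place them. In the left stretch replicate 1 had 39.3 peaks per Mb, replicate 2 had 19.7 and the series-level list 92.0. The right stretch had 28, 14 and 69.5 peaks per Mb. The 10 other windows had 48, 18.4 and 103, so both stretches were below them in replicate 1, while in replicate 2 the left stretch was above. Those 10 mix positions. The 6 in the centre, where most of the left stretch lies, had 56, 20 and 113 peaks per Mb, above the left stretch in all 3 lists. The 4 at the left end had 36, 16 and 89, below it in all 3. The left stretch was uneven. Replicate 1, replicate 2 and the series-level list had 45, 29 and 130 peaks in the 5th window, 40, 17 and 87 in the 6th, and 33, 13 and 59 in the 7th. Its higher levels in replicate 2 and the series-level list thus rested on the 5th window. The 6th and 7th were each below the 10 other windows in replicate 2 and below the 4 left windows in the series-level list. Within the right stretch the series-level counts ran from 54 to 104. The right stretch lies almost wholly in the right arm, so its position in the arm and its 21U-RNA genes cannot be told apart here. Both stretches together had 0.68 times the density of the other windows in replicate 1 and 0.89 times in replicate 2, a mean of 0.79 ± 0.147 (SD, n = 2). Without the first window of each stretch the mean was 0.69 ± 0.132 (SD, n = 2).

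At a finer scale the sites were uneven. Among the 174 full windows of 100 kb on IV, the series-level list left 2 empty, replicate 1 left 12 and replicate 2 left 39. The fullest was at 4000001 to 4100000, with 29 peaks in the series-level list, and 7 and 5 in replicates 1 and 2. It adjoins the empty window at 3900001 to 4000000, in which none of the 3 lists has a peak midpoint. The next, at 8500001 to 8600000, had 28 series-level peaks, 6 and 5. The third, at 4400001 to 4500000, had 24, 9 and 7, and the peaks of these lists covered 26.9%, 40.5% and 24.4% of it in that order. The fullest and the third fullest thus lie within 500 kb of each other, in the 5th 1 Mb window.

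Neighbouring series-level peaks on IV were a median of 2.78 kb apart, midpoint to midpoint, and 64.8% of them (1055 of 1627) had a neighbour within 2 kb. On the other chromosomes the median ran from 2.09 kb on X to 2.87 kb on V. The share within 2 kb ran from 63.3% on V to 70.0% on X, so such clustering is not particular to IV. When peaks less than 2 kb apart from edge to edge were chained, 498 stood alone and 1129 formed 342 chains, of which 59 had 5 or more peaks. The longest chain, 17 peaks over 21949 bp at 13013060 to 13035008, lay in the centre, close to where the right arm begins. None of its peaks overlapped both replicates and its top score was 10.94, although 5 peaks of replicate 1 and 1 of replicate 2 overlapped its span. The second longest, 16 peaks over 20260 bp at 4016835 to 4037094, was of another kind: 8 of its peaks overlapped both replicates and its top score was 53.36. Chains were picked out after the values were seen.

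Several long stretches had no series-level peak. The longest without a series-level peak, 201 kb at 16181479 to 16382165, lay in the right arm, was longer than any on the other 5 chromosomes, and held the midpoint of no peak of either replicate, though 1 peak of replicate 1 reached over its edge. The longest on another chromosome was 194 kb, on V. In the list of each replicate, V had the longest stretch without a peak, 284 and 505 kb, against 206 and 372 kb on IV. The second on IV in the series-level list, 144 kb at 10513259 to 10656845, lay in the dense centre. It held the midpoints of 2 peaks of replicate 1 and none of replicate 2, and 4 peaks of replicate 1 reached into it. The third, 142 kb at 6151714 to 6294056, held the midpoint of 1 peak of replicate 2 and none of replicate 1, and lies in the sparse 7th window. The fourth, 132 kb at 4930945 to 5063426 and chosen after its values were seen, met no peak of any list. IV had 69 stretches of 50 kb or more without a series-level peak, against 94 on V and 30 to 51 on the remaining chromosomes.

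Peaks on IV were about as wide as elsewhere in the middle of the distribution, with a smaller share of 5 kb or more than the other 5 chromosomes combined. Replicate 1 had a median width of 1745 bp (quartiles 1258 and 2739), replicate 2 one of 1684 bp (1273 and 2331) and the series-level list one of 336 bp (212 and 598.5). On the other 5 chromosomes the medians were 1692, 1681 and 335 bp. Peaks of 2 kb or more made up 40.3%, 35.1% and 3.13% of the lists on IV, near the 39.6%, 35.2% and 3.01% elsewhere. Peaks of 5 kb or more numbered 55 on IV in replicate 1, or 7.54%, against 8.97% elsewhere. Replicate 2 had 8, or 2.65% against 3.91%, and the series-level list had 2, or 0.123% against 0.349%. They took 24.0% of the summed peak width of replicate 1 on IV and 29.5% on the other chromosomes. The centre had the wider peaks in replicate 1, with a median of 1837 bp, against 1692 bp in the left arm and 1566 bp in the right. In replicate 2 the left arm had the narrowest, with 1466 bp, against 1776 bp in the centre and 1693 bp in the right arm. On each of the other 5 chromosomes the centre also had a wider median than either arm in replicate 1, from 1758.5 bp on V to 1912 bp on III.

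The widest series-level peak on IV measured 6162 bp, at 4467687 to 4473848 in the centre, with a score of 53.89. Replicate 1 enclosed it in a peak of 13602 bp, with the score 3100 that 86 IV peaks of that list share, and replicate 2 in one of 6985 bp, its widest on IV. The second widest, 5060 bp at 11070850 to 11075909, had no peak in replicate 1 and 1 of 5922 bp in replicate 2, where its score of 1409 was the highest of any IV peak without a partner in replicate 1. The third, 4186 bp at 14610434 to 14614619 in the right arm, lay within peaks of 6661 and 5562 bp. The fourth, 4013 bp at 13028371 to 13032383, had a score of 7.25, close to the IV median of 6.54, and met a peak in replicate 2 alone; it belongs to the longest chain. The fifth, 3701 bp at 16489786 to 16493486, lay within peaks of both replicates, the one in replicate 1 spanning 9397 bp.

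The 3 widest peaks of each replicate on IV shared 1 place, that of the widest series-level peak. The widest of replicate 1, 17826 bp at 4014854 to 4032679, overlapped 13 series-level peaks and 3 of replicate 2. The second of replicate 1 is the one of 13602 bp already named. Another of 13166 bp, at 8525352 to 8538517, came next and overlapped 10 series-level peaks and 2 of replicate 2. In replicate 2 the second widest, 6348 bp at 4416031 to 4422378, and the next, 5977 bp at 11609726 to 11615702, met no peak of replicate 1. Without read coverage, continuous and broken occupancy across these spans cannot be told apart.

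About 1 in 4 series-level peaks on IV overlapped a peak of both replicates by at least 1 bp. There were 433 such peaks of 1627, or 26.6% (interval 24.5 to 28.8%), where all 6 chromosomes had 26.0%. A further 802 or 49.3% (46.8 to 51.8%) overlapped replicate 1 alone, against 52.9% over all 6, and 52 or 3.196% (2.40 to 4.17%) replicate 2 alone, against 3.15%. The remaining 340 or 20.9% (18.9 to 23.0%) overlapped neither, against 18.0%. The classes on IV were thus near those of the whole list. By length the order differed: the peaks in both made up 47.4% of the covered length and those in neither 10.9%.

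Peaks in both replicates were the wide and high-scoring ones. Their median width was 722 bp and their median score 14.51, against 220.5 bp and 4.30 for peaks in neither and 311 bp and 5.92 for those in replicate 1 alone. The 52 peaks in replicate 2 alone had a median of 556.5 bp and a median score of 12.76. Over 5 equal groups of IV peaks from low to high score, the share in both replicates was 8.59%, 10.1%, 15.7%, 29.8% and 68.9%, and the share in neither was 38.3%, 29.8%, 22.8%, 10.2% and 3.38%. By width the share in both ran from 8.29% of 350 peaks under 200 bp to 82.4% of 51 peaks of 2000 bp or more. Across the 1627 peaks the Spearman correlation between width and score was 0.70, and width by itself makes an overlap of 1 bp more likely, so strength and width are not separated here. The 433 peaks in both replicates fell on 240 peaks of replicate 1, with at most 7 on 1 of them, and on 266 of replicate 2.

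**Figure D4:**
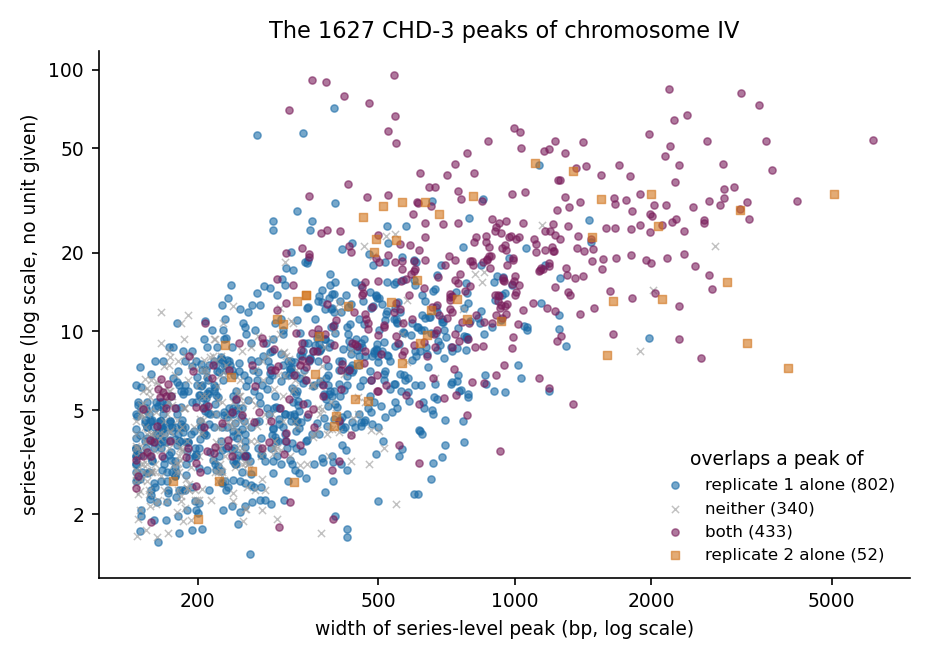
Width (horizontal, log scale) against the authors' score (vertical, log scale) for the 1627 series-level peaks of IV, 1 point each, coloured by the replicates whose peaks they overlap. Peaks in both replicates lie towards the upper right (median 722 bp and 14.51), those in neither towards the lower left (220.5 bp and 4.30), and a small group under 600 bp stands at high scores.

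Support changed along IV mainly in the peaks that overlapped neither replicate or replicate 1 alone. In the centre 15.8% of series-level peaks overlapped neither replicate, against 26.7% in the left arm and 29.0% in the right arm. Peaks in replicate 1 alone went the other way, with 54.1%, 46.1% and 38.6%. The share in both replicates was 26.2% in the centre (interval 23.4 to 29.2%), 25.7% in the left arm (21.6 to 30.3%) and 29.0% in the right arm (23.9 to 34.6%), values whose intervals overlap. On each of the other 5 chromosomes the share in neither was also lower in the centre than in both arms combined. Among 1 Mb windows the share in both ran from 16.3% in the 14th to 37.0% in the 16th, the window with the fewest peaks. The 12th window held 13 of the 52 peaks in replicate 2 alone, the most of any.

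**Figure D5:**
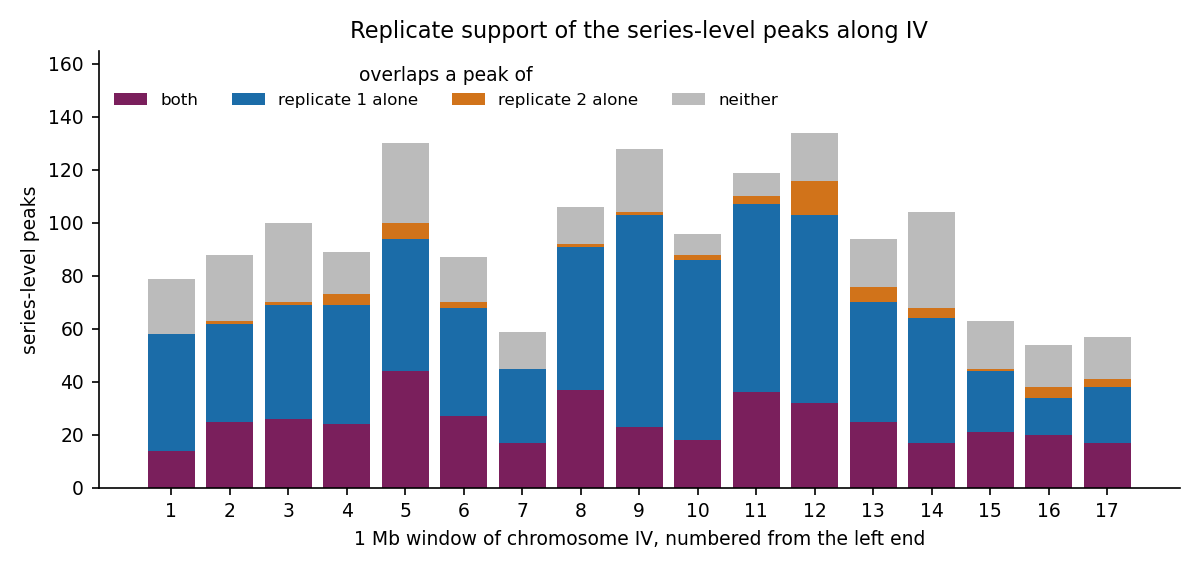
Series-level peaks per 1 Mb window of IV (vertical axis), stacked by the replicates whose peaks they overlap, with windows numbered from the left end. Peaks in replicate 2 alone are most frequent in the 12th window (13), and peaks in neither in the 14th (36).

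Of the 302 peaks of replicate 2 on IV, 267 or 88.4% (84.3 to 91.8%) overlapped a peak of replicate 1, where all 6 chromosomes gave 88.8%. In the other direction 240 of 729 or 32.9% (29.5 to 36.5%) of replicate 1 peaks had a partner, against 30.6%. By length the replicates shared 0.511 Mb of IV, or 29.3% of what replicate 1 covered there and 84.1% of what replicate 2 did. The series-level list overlapped 659 of the 729 peaks of replicate 1 (90.4%, against 88.6% over all 6 chromosomes) and 300 of the 302 of replicate 2 (99.3%, the same as the 99.3% over all 6). The 70 peaks of replicate 1 that it missed were 1239 bp wide at the median, with a median score of 89.3, and none had a partner in replicate 2.

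The share of peaks with a partner rose with score in replicate 1 and did not in replicate 2. Over 5 equal groups from low to high score, 5.48%, 11.6%, 13.01%, 45.9% and 89.0% of replicate 1 peaks on IV had a partner. In replicate 2 the same shares were 90.2%, 90.2%, 91.7%, 90% and 80% (interval of the last 67.7 to 89.2%). Width and score had a Spearman correlation of 0.81 in replicate 1, so they are not separated here. Its peaks with a partner had a median width of 2946 bp, and those without 1462 bp. In replicate 2 these medians were 1680 and 1722 bp. The 302 peaks of replicate 2 were matched to the longer list, with 729 peaks. Replicate 1 peaks in the arms had a partner more often, with 38.6% in the left arm (31.0 to 46.7%) and 39.3% in the right (30.6 to 48.6%), than those of the centre, with 29.2% (25.01 to 33.6%). In replicate 2 the left arm had 94.5% (86.6 to 98.5%), the centre 86.5% (80.5 to 91.3%) and the right arm 86.2% (74.6 to 93.9%). These intervals overlap, and no test was made.

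Across 216 pairs of IV peaks that overlapped one-to-one, scores had a Spearman correlation of 0.41 and widths one of 0.57, given as a description over sites of the same libraries. Without peaks at or above a score of 3100, 152 pairs were left and the score correlation was 0.199. The peak of replicate 1 was the wider in 186 of the 216 pairs, or 86.1%, with a median ratio of 1.45. Midpoints of partners lay a median of 205.5 bp apart. On the other chromosomes the score correlation ran from 0.40 on V to 0.53 on X.

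The 10 highest-scoring series-level peaks of IV with a peak in both replicates fell into 2 groups by width. Of these, 6 were 318 to 541 bp wide and 4 were 2192 to 3460 bp wide. The gap belongs to this set of 10. Among all 45 IV peaks scoring 40 or more, widths ran from 270 to 548 bp and on from 620 to 6162 bp. The first 3 of the 10 were all narrow. The site at 2619090 to 2619630 in the left arm scored 95.62, eighth among all nuclear peaks, with 3100 in replicate 1 and 401 in replicate 2. The site at 4725384 to 4725740 scored 91.08, with 2811 and 82.7. Its neighbour at 4727809 to 4728192 scored 89.58, with 1710 and 90.04, and lies about 2 kb downstream in coordinate order. The narrow sites further down were at 4390366 to 4390785 (79.32), at 16845227 to 16845704 in the right arm (74.35) and at 3313331 to 3313648 (70.16). All 6 narrow sites scored 401 or less in replicate 2. Across the 302 IV peaks of replicate 2, width and score had a Spearman correlation of 0.73.

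The wide sites among the 10 had higher scores in replicate 2, from 893 to 3100. The one at 8467176 to 8469367, 2192 bp wide with a series-level score of 84.27, scored 3100 in both replicates. At 9196119 to 9199275 the peak was 3157 bp wide and scored 81.47, with 3100 in replicate 1 and 893 in replicate 2. The widest of the 10, 3460 bp at 12021998 to 12025457, scored 72.95, with 3100 and 1328. In the left arm, the site at 2754207 to 2756606 scored 66.9, with 2924 in replicate 1 and 3100 in replicate 2, the only one of the 10 whose printed score was higher in replicate 2. Scores are not on a common scale: over the 216 pairs the median was 1641 in replicate 1 and 144 in replicate 2. By domain, 3 of the 10 sites lay in the left arm, 6 in the centre and 1 in the right arm.

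Some strong series-level peaks met 1 replicate or none. The highest in replicate 1 alone was at 4720476 to 4720874, 399 bp wide with a score of 71.56, and lies 5 kb before the pair of narrow sites at 4725384 and 4727809. Those at 4184719 to 4185059 (57.40) and at 15530555 to 15530824 (56.11) came next and were narrow as well, at 341 and 270 bp. The highest in replicate 2 alone were wider. They lay at 11324020 to 11325127 (43.94, 1108 bp), at 11400072 to 11401418 (40.84, 1347 bp) and at 2828594 to 2830590 (33.55, 1997 bp), the first pair in the 12th window. The second widest peak of IV, at 11070850, tied with the last of these at 33.55 and lies in the 12th window too. Of the peaks in neither, the highest were at 14779293 to 14780440 (25.57), at 8574299 to 8574844 (23.53) and at 16518852 to 16519372 (23.07).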

How the data were processed

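The members and lists described here were chosen with earlier results of these data known. Each deposited list gives a position and 1 score per peak, made by the authors with MACS for each replicate and MACS v2 for the series-level list, per the file headers and source fields. Reads were aligned with BWA, version not stated, to ce10, per the submitters' processing notes, and positions are in WS220, per the file headers. Neither thresholds, pooling, the role of the input nor depth is given in the sources used here, so a longer list cannot be told from a deeper library. The length of a chromosome was its highest peak end over the 3 lists, 17.5 Mb for IV. A peak belonged to the window or arm that holds its midpoint. An overlap needed at least 1 bp.

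Regions were named by rule: on IV, the 10 highest series-level scores among peaks in both replicates, the 5 widest, the 3 highest of each other support class, the 3 widest of each replicate, the 3 longest stretches without a peak, and the densest and sparsest windows. Other regions are marked as chosen after their values were seen. Alternatives changed the overlap rule, the arm boundary, the measure, the peaks used, merging and the replicates. All 13 checks of the calculations on simulated lists of 400 sites returned the values they were made with. Python 3.11.15, numpy 2.4.6, pandas 2.3.3, scipy 1.17.1 and matplotlib 3.10.9 were used.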

Additional observations from a re-analysis of the deposited data

How the results depend on the processing

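Of 58 alternatives to 16 values, 34 stayed within the spread of the replicates, the counting interval or, for counts, 1.5 times, 24 moved and 0 reversed. Leaving out a replicate always gives a value within the replicate spread, so those alternatives could not move. A reversal was defined only for the density ratio, the arm shares, the score correlation and the 21U-RNA windows. For other arm boundaries it was judged against the share of length in those arms. The density of IV relative to the other 5 chromosomes stayed below 1 under each alternative run, from 0.83 by covered length to 0.90 without replicate 1. The arm share of IV stayed below the share of length: with wider arms it was 61.5% in the replicates and 62.0% in the series-level list, in 66.6% of the length, and by covered length 40.5% in the series-level list. The shares of partners depended most on the rule. With a 50% reciprocal overlap, 22.4% of replicate 1 and 54.0% of replicate 2 peaks had one, with midpoints within 250 bp 17.6% and 42.4%, and, when both lists were cut to the same number of highest scores, 65.2% and 74.2%. In the upper 50% by score the share of replicate 2 was 78.8%. With the reciprocal rule, 3.32% of series-level peaks met both replicates, 0.983% only replicate 1, 7.81% only replicate 2 and 87.9% neither; a median series-level peak of 336 bp cannot cover 50% of most replicate peaks. In the upper 50% by score these shares were 21.9%, 42.7%, 5.56% and 29.9%, with fewer peaks to match, and with the midpoint inside the replicate peak 24.4% were in both. The median width in the upper 50% was 2434 bp in the replicates and 548 bp in the series-level list, and merging made the latter 391.5 bp. The rank correlation of scores was 0.199 without peaks at or above 3100 and 0.543 with the reciprocal rule; the cause was not tested. Leaving out a replicate returns the value of the other: 0.84 to 0.90 for the density ratio, 38.4 to 43.4% for the arm share, 1684 to 1745 bp for the width and 0.68 to 0.89 for the 21U-RNA windows. No paired analysis was possible because the files used here give no peaks for the inputs. Unknown depth limits any reading of the shorter list of replicate 2.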

Other observations

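All patterns given here were picked with their values in view. Chromosome IV held 12 series-level peaks that were under 600 bp wide and scored 40 or more, out of 45 IV peaks at that score. They lay in the 2nd to 5th and the 14th to 17th 1 Mb windows, with none in the 6th to 13th and none in the 15th, and 5 of the 12 were in the 5th. A run of 3, at 4720476, 4725384 and 4727809, lay within 8 kb. All 12 overlapped a peak of replicate 1 and 9 also one of replicate 2. Their median score was 70.86 in the series-level list, 1679 in replicate 1 and, over the 9 with a peak there, 103 in replicate 2. Among the 33 IV peaks of that score that were 600 bp or wider, the median was 49.73 in the series-level list, 3100 over the 31 with a peak in replicate 1 and 691 over the 32 with one in replicate 2. The ranges overlapped: series-level scores ran from 52.63 to 95.62 for narrow and from 40.11 to 84.27 for wide peaks. In replicate 1 the tied score of 3100 was held by 3 of the 12 narrow peaks and 22 of the 31 wide ones. Chromosome I had 11 such narrow peaks, II had 6, III had 4, and V and X had 2 each. Per Mb, I had 0.730 and IV 0.686, and narrow peaks were 26.8% of the peaks scoring 40 or more on I and 26.7% on IV.

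IV held 25 of the 100 highest-scoring nuclear peaks of the series-level list and 163 of the highest 1000, where it held 15.5% of all peaks.

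A chain of 8 series-level peaks at 8572701 to 8581708, with scores up to 23.53, met no peak of either replicate. It lies in the second fullest 100 kb window of IV.

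The first series-level peak of IV lay at 1 to 206, with a score of 5.17, while the first IV peak began at 50708 in replicate 1 and 50884 in replicate 2.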
